A study of Mus musculus with 4 samples.

Results

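Transcripts of antibody chains and of the cells that make them were followed in dystrophic leg muscle through 7 genes: Igha, Ighm, Igkc, Jchain, Mzb1, Cd79a and Cd79b. All probe sets whose annotated symbols include 1 of these genes were taken, also those with several symbols, which gave 25 of 45037 probe sets without controls, or 7 of 19324 annotated gene symbols. The genes were chosen by their higher signal at 3 months than at 1 month in these same arrays, so age differences are given as a description and were not tested. The 4 groups were mdx mice at 1 month, mdx mice at 3 months, mdx/MMP-2-/- mice at 1 month and mdx/MMP-2-/- mice at 3 months, all labelled C57BL/6J. All groups carry the mdx mutation, which removes dystrophin and makes these mice a model of Duchenne muscular dystrophy, and no array held wild-type muscle. The mdx/MMP-2-/- mice also lack matrix metalloproteinase 2, a secreted gelatinase. RNA of tibialis anterior, the muscle along the shin, was read on Affymetrix expression arrays, 1 array per group, and whether an array held 1 animal or several is not given in the sources used here. With 1 array per group a difference between arrays has no test, and "higher" and "lower" speak of the arrays compared.

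An antibody is built from heavy chains, whose constant region sets the class, and light chains of the kappa or lambda type. B cells carry an antibody on their surface, where Cd79a and Cd79b pass its signal into the cell. Plasma cells are the end stage of B cells: they switch to a secreted heavy chain, enlarge the endoplasmic reticulum and lose most surface receptor genes. Igha encodes the constant region of IgA, the class of mucosal secretions, and Ighm that of IgM, the class made first. Igkc encodes the kappa constant region. Jchain encodes the joining chain that links IgA into dimers and IgM into pentamers, and Mzb1 encodes a chaperone of the endoplasmic reticulum that helps antibody assembly. B cells and plasma cells are rare in healthy muscle, and lymphocytes enter dystrophic muscle.

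Signals below are quantile-scaled intensities, and 17.4, the 50th percentile of all signals, served as the floor. Signals under the floor were raised to it before a log2 difference was taken and have no order. A fold against such a signal is therefore a lower bound. Of the 25 probe sets, 14 were above the floor in at least 1 array: 3 of 3 for Igha, 3 of 3 for Igkc, 5 of 15 for Ighm and 1 each for Jchain, Mzb1 and Cd79b. The remaining 11, the single Cd79a probe set and 10 of Ighm, were under the floor in all 4 arrays, with signals of at most 11.6. Only Jchain, Mzb1 and Cd79b were measured by probe sets with the plain ending _at. The other 11 above the floor end in _a_at (4), _s_at (1) or _x_at (6), endings that mark probes shared between transcripts or similar to other sequences. All 3 Igkc probe sets also carry the symbols Igkv6-23, Igkv4-53, Igkv8-30 and Igkj1, which are variable and joining segments of the kappa locus. The genes of antibody loci resemble each other closely, so which chain each of these probe sets read is uncertain.

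The stretch before the transcription start is shown for Jchain, a member with a higher signal at 3 months, and for Cd79a, the member under the floor throughout. Both come from RefSeq tables of build GRCm38.p6, which held entries that could be used for 2 of the 7 genes. Jchain lies at chr5:88527898-88528147 on the minus strand and Cd79a at chr7:24897247-24897496 on the plus strand. Each sequence is the run of bases that ends just before the transcription start, and capitals mark a match to a searched motif.
Jchain: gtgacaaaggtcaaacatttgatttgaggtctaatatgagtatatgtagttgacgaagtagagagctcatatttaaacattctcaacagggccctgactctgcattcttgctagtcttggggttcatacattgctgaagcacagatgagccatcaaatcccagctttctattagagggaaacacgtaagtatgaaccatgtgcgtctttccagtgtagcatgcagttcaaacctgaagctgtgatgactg
Cd79a: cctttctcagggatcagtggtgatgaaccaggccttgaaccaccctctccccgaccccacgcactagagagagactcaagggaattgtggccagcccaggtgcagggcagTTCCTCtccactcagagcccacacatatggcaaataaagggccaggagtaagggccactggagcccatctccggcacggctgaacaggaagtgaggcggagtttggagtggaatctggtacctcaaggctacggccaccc
Searched on both strands were the octamer ATGCAAAT, known from antibody gene promoters, the EBF core CCCNNGGG and GAGGAA, a form of the Ets site. Neither promoter held an exact match to the octamer or the EBF core, which occurred in 1.6% and 11.8% of 32851 promoters of the same length. Sites that differ from the searched letters were not looked for. The stretch ctcaaggg in Cd79a, for example, has t where the EBF core has C and is unmarked. The search therefore does not show that Cd79a lacks an EBF site. Cd79a held GAGGAA on the opposite strand, at positions -140 to -135 counted from the start, as 23.3% of all promoters did on either strand. The shorter GGAA within it was not searched and also stands unmarked in both printed sequences. A match or its lack says only which letters stand in these windows.

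All 3 probe sets of the kappa light chain gave higher signals at 3 months than at 1 month in both genotypes. Probe set 1427660_x_at gave 36.5 in mdx and 27.3 in mdx/MMP-2-/- at 1 month, and 238 and 191 at 3 months. Probe set 1452417_x_at gave 18.5 and 21.2 at 1 month, and 164 and 151 at 3 months. Probe set 1427455_x_at gave 25.01 and 13.6 at 1 month, and 102 and 111 at 3 months. For each of them both 3-month arrays lay above both 1-month arrays, with no overlap, as for 22.5% of all probe sets above the floor. The members were chosen for this rise, so nothing is read from that order.

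From 1 to 3 months the Igkc signal was 8.87-fold higher in mdx by 1452417_x_at, 6.52-fold by 1427660_x_at and 4.07-fold by 1427455_x_at. In mdx/MMP-2-/- the same probe sets were 7.11-fold, 7.0-fold and at least 6.37-fold higher. On the floored log2 scale, where 26032 probe sets were above the floor in some array, these ranked 1, 3 and 10 among age differences in mdx. In mdx/MMP-2-/- they held ranks 1, 2 and 3, in the order 1452417_x_at, 1427660_x_at and 1427455_x_at. Those ranks describe values that chose the members and are no test.

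**Figure D1:**
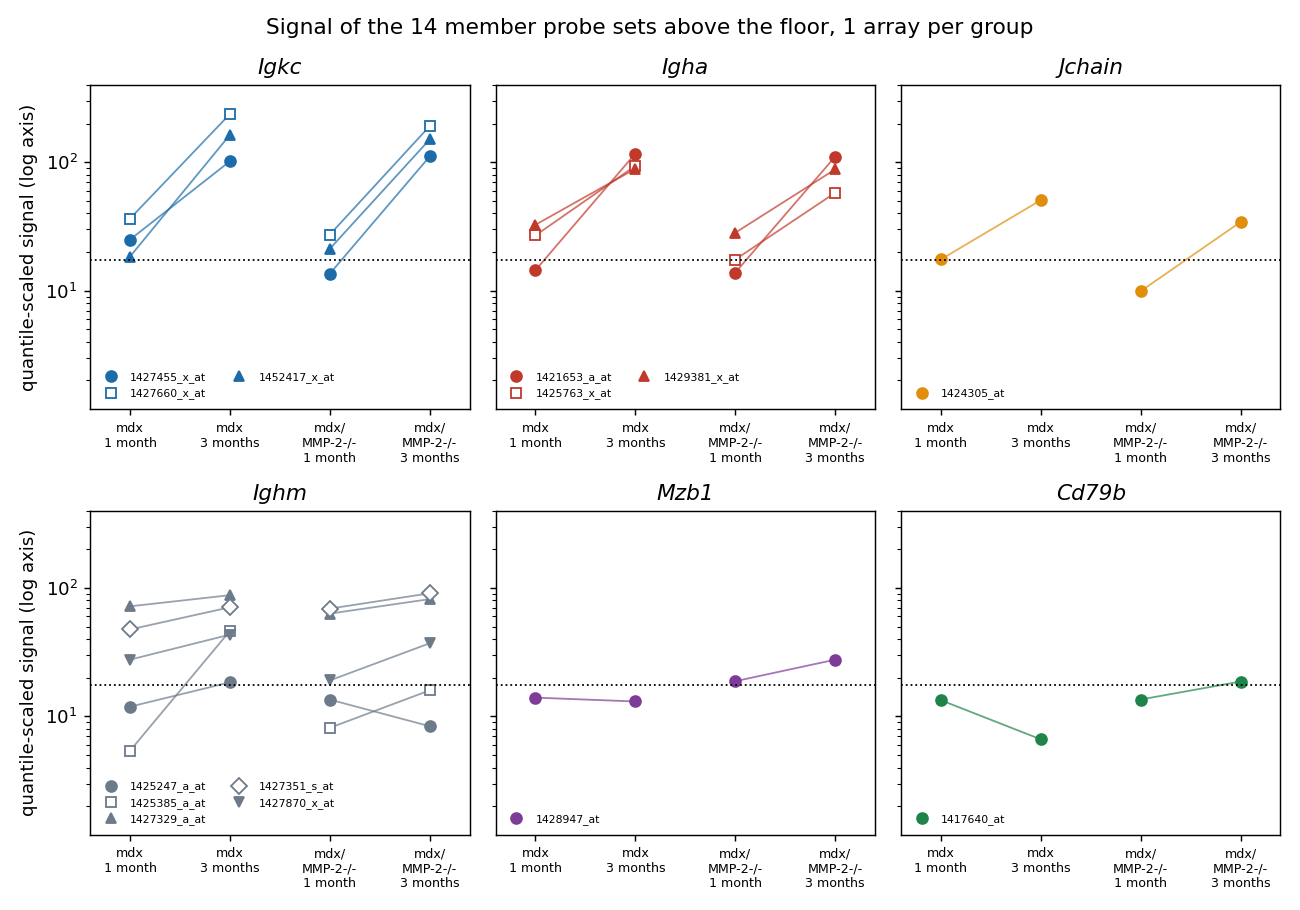
Quantile-scaled signal (log axis) of the 14 probe sets above the floor, by gene, in the 4 arrays; each symbol is 1 probe set in 1 array, lines join the ages within a genotype, and the dotted line is the floor of 17.4. The 3 Igkc, 3 Igha and single Jchain probe sets lie higher in both 3-month arrays than in both 1-month arrays. This order holds for 22.5% of all probe sets above the floor. Mzb1 and Cd79b stay near the floor.

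The IgA heavy chain followed the same course. Probe set 1421653_a_at gave 14.4 in mdx and 13.8 in mdx/MMP-2-/- at 1 month, both under the floor, and 117 and 111 at 3 months. Probe set 1425763_x_at gave 26.9 and 17.5 at 1 month, and 93.7 and 57.8 at 3 months. Probe set 1429381_x_at gave 32.6 and 28.3 at 1 month, and 89.005 and 88.1 at 3 months. Both 3-month arrays again lay above both 1-month arrays for each probe set, as for 22.5% of all probe sets above the floor.

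In mdx the IgA signal was at least 6.71-fold, 3.48-fold and 2.73-fold higher at 3 months by 1421653_a_at, 1425763_x_at and 1429381_x_at. The same probe sets gave at least 6.34-fold, 3.31-fold and 3.12-fold in mdx/MMP-2-/-. The 3 probe sets thus shared a direction but differed in size, and the one that was lowest at 1 month had the largest fold. In the order of age differences they ranked 2, 20 and 54 of 26032 in mdx, and 4, 36 and 49 in mdx/MMP-2-/-.

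Jchain, which links the heavy chains of IgA and IgM, was measured by 1 probe set at lower signals. It gave 17.5 in mdx and 9.91 in mdx/MMP-2-/- at 1 month, and 50.7 and 34.3 at 3 months. Signal was 2.89-fold higher at 3 months in mdx and at least 1.96-fold higher in mdx/MMP-2-/-. The mdx signal at 1 month lay just above the floor, and both calls move with settings. In mdx/MMP-2-/- the log2 difference of Jchain was 1.02 with median scaling, 1.08 with cyclic loess scaling and 1.63 with the floor at the 40th percentile, past 2-fold. With the floor at the 60th percentile it was at least 0.18, and that of Jchain in mdx at least 0.75.

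Ighm, the IgM heavy chain, did not move as one across its probe sets. The brightest, 1427329_a_at, gave 72.0 in mdx and 63.2 in mdx/MMP-2-/- at 1 month, and 87.9 and 81.9 at 3 months, which is 1.22-fold and 1.3-fold higher. Probe set 1427351_s_at gave 47.6 and 69.1 at 1 month, and 70.8 and 91.0 at 3 months. Probe set 1427870_x_at gave 27.7 and 19.1 at 1 month, and 43.4 and 37.1 at 3 months, or 1.57-fold and 1.95-fold higher. These 3 lay higher in both 3-month arrays than in both 1-month arrays, as 22.5% of all probe sets above the floor did, by less than 2-fold. With median scaling the log2 difference of 1427870_x_at in mdx/MMP-2-/- was 1.02 and without scaling 1.08, past 2-fold.

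The remaining Ighm probe sets were weaker. Probe set 1425385_a_at gave 5.41 in mdx and 8.16 in mdx/MMP-2-/- at 1 month, and 46.4 and 16.0 at 3 months. It was at least 2.66-fold higher at 3 months in mdx, and both arrays of mdx/MMP-2-/- were under the floor. With the floor at the 60th percentile the mdx difference was at least 0.62 on the log2 scale, short of 2-fold. The last, 1425247_a_at, passed the floor only in mdx at 3 months (18.4), with 11.9, 13.5 and 8.39 in mdx at 1 month and in mdx/MMP-2-/- at 1 and 3 months. The 10 further probe sets of Ighm, 4 of which share symbols with variable segments or Ighg3, stayed under the floor.

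The B cell receptor subunits and the chaperone were at the limit of measurement. Cd79a gave 0.389 in mdx and 3.93 in mdx/MMP-2-/- at 1 month, and 11.6 and 2.70 at 3 months, all under the floor, so no fold is given. Cd79b gave 13.4 and 13.5 at 1 month, and 6.63 and 18.7 at 3 months, and passed the floor only in mdx/MMP-2-/- at 3 months. Mzb1 gave 14.01 and 18.8 at 1 month, and 13.1 and 27.7 at 3 months: under the floor in both mdx arrays, and 1.47-fold higher at 3 months than at 1 month in mdx/MMP-2-/-. No higher signal with age was thus measured in mdx for these 3 genes, and a difference under the floor was not detectable.

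Counted together, 8 of the 14 probe sets above the floor were at least 2-fold higher at 3 months in mdx, where 1.22% of all 26032 probe sets were, and none was 2-fold lower, where 1.59% were. In mdx/MMP-2-/- 6 of 14 were at least 2-fold higher (1.53% of all) and none lower (1.65% of all). The same 6, the 3 of Igkc and the 3 of Igha, passed 2-fold in both genotypes, as 48 probe sets or 0.184% of all did. Without overlap, 10 of the 14 lay higher in both 3-month arrays than in both 1-month arrays, against 22.5% of all. In mdx the median log2 age difference of the 14 was 1.43, in mdx/MMP-2-/- it was 0.97, and that of all probe sets was 0.0 in both. Over all 25 members, with those under the floor set to it, the median was 0.0 as well. Because the rule used this rise, nothing is read from these counts. Among the 18909 probe sets whose highest signal lay between 18.4 and 238, the range of the 14, the shares at least 2-fold higher were 1.45% in mdx and 1.8% in mdx/MMP-2-/-.

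**Figure D2:**
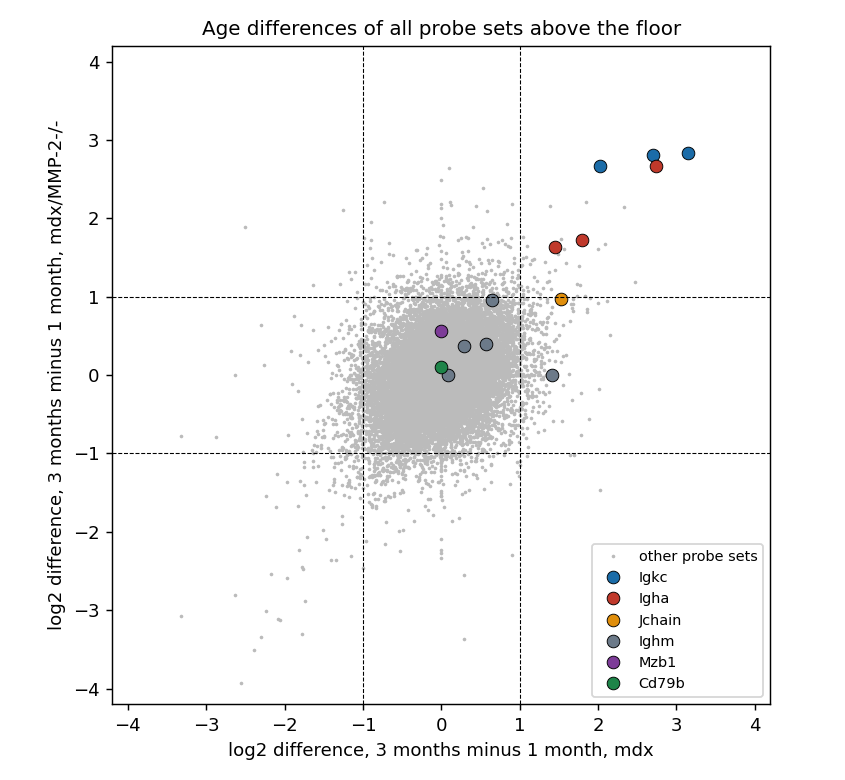
Log2 difference between 3 months and 1 month in mdx (horizontal axis) and in mdx/MMP-2-/- (vertical axis) for all 26032 probe sets above the floor, with the 14 immunoglobulin and plasma cell probe sets in colour; dashed lines mark 2-fold. The Igkc and Igha probe sets lie in the upper right corner, past 2-fold on both axes, and the Cd79b and Mzb1 points lie near the centre.

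In bulk muscle RNA, more cells of a type and more RNA per cell cannot be told apart. For Actb, the signal of its 3' probe set over that of its 5' probe set, which reads how intact and evenly labelled the RNA was, moved with age as well, from 1.19 to 2.36 in mdx and from 1.05 to 2.09 in mdx/MMP-2-/-, while that of Gapdh lay between 0.85 and 0.936. Its part in the age differences was not tested. All 10 muscle markers were far above the floor in every array, with summed signals of 135104 to 136554. Mmp2 itself gave 985 and 805 in mdx at 1 and 3 months, and 24.7 and 40.9 in mdx/MMP-2-/-. The deposited signals differed in level, with trimmed means between 90.4 and 122 and the highest in mdx/MMP-2-/- at 3 months, and were scaled for this reason.

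The comparison of genotypes was not used to choose the members. At 1 month none of the 14 probe sets was 2-fold higher in mdx/MMP-2-/- (0.703% of all were) and none 2-fold lower (0.626% of all). At 3 months none was 2-fold higher (1.11% of all), and 1 was 2-fold lower (0.569% of all): the Ighm probe set 1425385_a_at, at least 2.66-fold. With the floor at the 60th percentile its log2 bound was -0.62, short of 2-fold. The median log2 difference of the 14 was 0.0 at 1 month and -0.09 at 3 months, and that of all probe sets was 0.0 at both ages.

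For Igkc and Igha the genotype differences stayed within 0.7 of 0 on the floored log2 scale. The log2 differences of Igkc, mdx/MMP-2-/- minus mdx, ranged from -0.52 to 0.2 at 1 month and from -0.31 to 0.13 at 3 months. The -0.52, of 1427455_x_at, is a bound: its signal was 25.01 in mdx and 13.6, under the floor, in mdx/MMP-2-/-. The difference without a floor would be larger. Of Igha, 1425763_x_at was 1.54-fold lower in mdx/MMP-2-/- at 1 month and 1.62-fold lower at 3 months, whereas 1429381_x_at was 1.15-fold and 1.01-fold lower, and 1421653_a_at was 1.06-fold lower at 3 months. Leaving the arrays unscaled moved the median difference of all probe sets between genotypes at 3 months to 0.43, and 6 small negative differences became positive: 2 of Igha, 2 of Igkc and 2 of Ighm. Taken relative to the median deposited ratio, the 3-month log2 differences were 0.037 for Igha 1429381_x_at, -0.042 for Igha 1421653_a_at, -0.27 for Igkc 1427660_x_at, -0.069 for Igkc 1452417_x_at, -0.056 for Ighm 1427329_a_at and -0.17 for Ighm 1427870_x_at. The values of Igha 1425763_x_at and Ighm 1425385_a_at were -0.68 and -1.54 by the same measure. Ighm 1427351_s_at was higher in mdx/MMP-2-/- by 0.54 at 1 month and 0.36 at 3 months, beside age differences of 0.57 and 0.40. Jchain was 1.48-fold lower at 3 months. Mzb1 was at least 1.59-fold higher in mdx/MMP-2-/- at 3 months, 27.7 against 13.1.

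A test across both ages was possible for genotype, in a limma fit with a genotype and an age term, which left 1 residual degree of freedom. None of the 14 probe sets had an adjusted p under 0.05, as none of all 26032 probe sets did (0.0%). The lowest adjusted p of the limma fit among the 14 was 0.98. At an unadjusted p under 0.05 there were 1229 probe sets, 2 of them members: Igha 1425763_x_at, with a log2 difference of -0.66 (SE 0.158), lower in mdx/MMP-2-/- at both ages, and Ighm 1427351_s_at, with 0.45 (SE 0.163), higher at both ages. The other probe sets of both genes did not share these values, and a p that misses the threshold does not show that the genotypes are alike. The deleted Mmp2 was itself not called by the main fit, though its signal was 39.9-fold and 19.7-fold lower in mdx/MMP-2-/- at 1 and 3 months. The lack of a call therefore says little about the members. A variance prior that follows signal called 2 probe sets, none of them a member.

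Whether age acted differently in each genotype left no degree of freedom for a test. The age difference in mdx/MMP-2-/- minus that in mdx was between -0.08 and 0.19 for Igha and between -0.32 and 0.65 for Igkc on the log2 scale. It was -0.56 for Jchain, 0.56 for Mzb1 and -1.41 for Ighm 1425385_a_at, each of which had at least 1 signal under the floor. So had Igkc 1427455_x_at, which gave the 0.65, and Igha 1421653_a_at, which gave the -0.08.

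**Figure D3:**
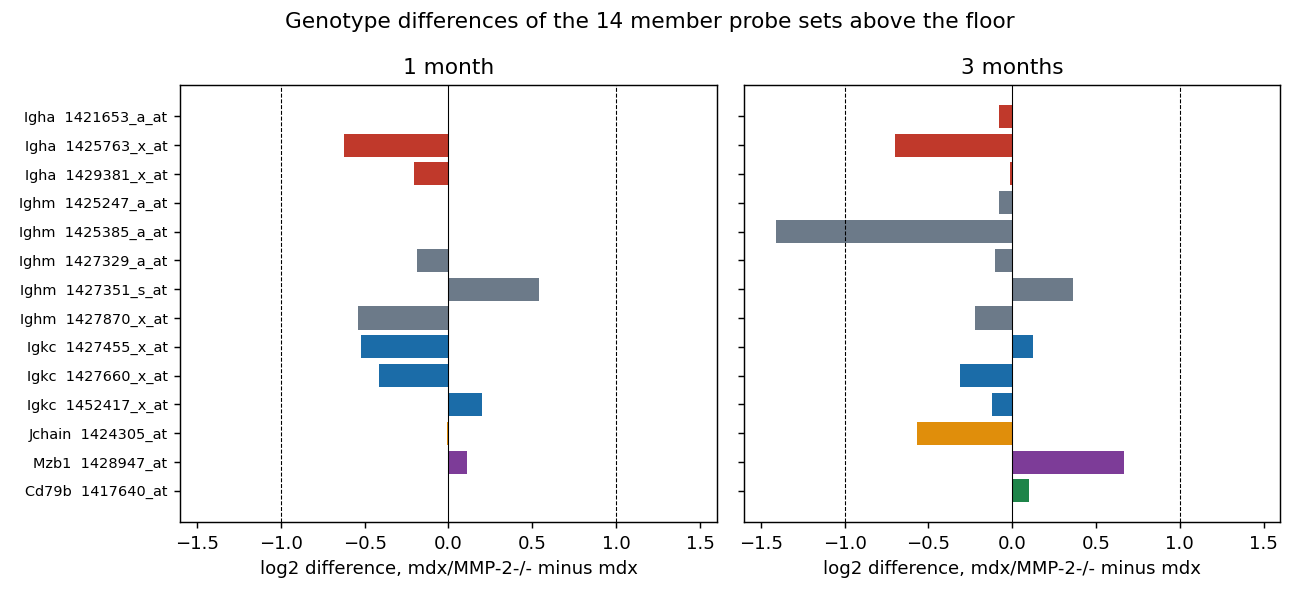
Log2 difference between mdx/MMP-2-/- and mdx at 1 month (left) and 3 months (right) for the 14 probe sets above the floor; bars start at 0, dashed lines mark 2-fold, and a missing bar means that both arrays were under the floor (the Jchain bar at 1 month is -0.0062). Only Ighm 1425385_a_at at 3 months passes 2-fold, and the Igkc and Igha bars lie within 0.7 of 0. A bar with an array under the floor is a bound, such as that of Igkc 1427455_x_at at 1 month.

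Other antibody genes were mostly dark on these arrays. Of 39 further probe sets for heavy chain, light chain or surrogate light chain genes, 3 were above the floor. The kappa variable segment Igkv8-30 gave 7.04 in mdx and 4.42 in mdx/MMP-2-/- at 1 month, and 38.6 and 30.1 at 3 months, higher by at least 2.21-fold in mdx and at least 1.72-fold in mdx/MMP-2-/-. Its course was that of Igkc, whose probe sets carry its symbol too. Igll1 is a surrogate light chain of B cell precursors. Its probe set ending in _x_at reached 30.8 in mdx/MMP-2-/- at 3 months. It gave 12.7 and 3.4 in mdx at 1 and 3 months, and 18.5 in mdx/MMP-2-/- at 1 month. A further Igll1 probe set with the plain ending, 1420177_at, gave at most 1.36, under the floor in every array. The third probe set, shared by Vpreb1 and Vpreb2, reached at most 22.9. Ighg3, which encodes an IgG heavy chain, and the lambda segment Iglv1 were under the floor. Ighd, Ighe, Ighg1, Ighg2b and Ighg2c had no probe set under these symbols and were not analysed here.

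Genes that identify B cells were often dark. Of 24 genes with a probe set of their own, 10 were under the floor in all arrays, among them Ms4a1 (CD20), the B lineage factor Pax5, the octamer coactivator Pou2af1 and the receptor Cr2. Of the 14 above it, none was at least 2-fold higher at 3 months in mdx and 1 was lower. In mdx/MMP-2-/- 1 was higher and none lower. Of 12796 genes with a probe set of their own above the floor, 0.96% were at least 2-fold higher at 3 months and 1.55% lower in mdx, and 1.46% and 1.22% in mdx/MMP-2-/-, so counts of 0 or 1 in a list of this size lie near the background. The 1 that was higher was Cd180, a receptor of B cells and macrophages, at 27.5 and 18.3 at 1 month in mdx and mdx/MMP-2-/-, and 39.2 and 49.3 at 3 months, 1.42-fold and 2.7-fold higher. Cd24a, a surface protein that muscle and blood cells share, gave 2823 and 2639 at 1 month and 4175 and 5083 at 3 months. In mdx the list had a median age difference of -0.02, in mdx/MMP-2-/- of 0.22, against 0.0 in mdx for all these genes.

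Of regulators of the plasma cell state, 9 genes were above the floor. At 3 months 2 of the 9 were higher and 7 lower in mdx, and 9 of 9 were higher in mdx/MMP-2-/-. Each difference was less than 2-fold, and between 0.96% and 1.55% of all genes passed 2-fold in a given direction and genotype. Of all 12796 genes above the floor, 6140 were higher and 6102 lower in mdx, and 6402 and 5847 in mdx/MMP-2-/-. Macrophage genes also moved this way, with 13 of 16 lower in mdx and 15 of 16 higher in mdx/MMP-2-/-. Prdm1, the factor that drives plasma cell differentiation, gave 21.5 and 16.9 at 1 month in mdx and mdx/MMP-2-/-, and 33.2 and 22.2 at 3 months, or 1.55-fold and at least 1.27-fold higher. Ell2, an elongation factor that favours the secreted heavy chain and that other tissues also express, gave 289 and 360 at 1 month, and 363 and 584 at 3 months. Irf4, Tnfrsf17 (BCMA, a survival receptor of plasma cells) and Eaf2 were under the floor. In mdx the 9 had a median age difference of -0.11, and in mdx/MMP-2-/- of 0.34.

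Among 18 genes of the secretory pathway, 1 passed 2-fold with age in mdx and none in mdx/MMP-2-/-. Most cells express these genes, and plasma cells express them strongly. Of all genes, 0.96% in mdx and 1.46% in mdx/MMP-2-/- were at least 2-fold higher, and 1.55% and 1.22% lower. By any amount, 7 of the 18 were higher and 11 lower at 3 months in mdx, and 13 were higher and 5 lower in mdx/MMP-2-/-. Of all 12796 genes, 6140 and 6402 were higher by any amount in mdx and mdx/MMP-2-/-. The gene past 2-fold was Derl3, which takes part in the disposal of misfolded proteins. It gave 19.0 in mdx and 7.57 in mdx/MMP-2-/- at 1 month, and 45.6 and 27.8 at 3 months, 2.4-fold and at least 1.6-fold higher. Both 3-month arrays thus lay above both 1-month arrays, as for 22.5% of all probe sets above the floor. Dnajb9, a stress-induced co-chaperone, was 1.53-fold and 1.73-fold higher, and Sdf2l1 1.2-fold and 1.94-fold. Txndc5, a disulfide isomerase, was 1.63-fold and 1.17-fold lower. In mdx their median age difference was -0.04, and in mdx/MMP-2-/- it was 0.31.

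The list of genes that carry antibody, switch its class or bring its cells to tissues held both dark and bright genes. Pigr, which moves IgA across epithelium, and Madcam1, a homing receptor of gut vessels, were under the floor, as were Ccr9, Il5 and Il10. Cxcl12, a chemokine that retains plasma cells and that stroma of many tissues makes, gave 770 and 864 at 1 month in mdx and mdx/MMP-2-/-, and 646 and 828 at 3 months, 1.19-fold and 1.04-fold lower. Fcgrt, the neonatal Fc receptor, was 1.22-fold and 1.18-fold lower. Itgb7, an integrin subunit of cells that home to mucosa, gave 20.6 and 22.3 at 1 month in mdx and mdx/MMP-2-/-, and 34.5 and 27.1 at 3 months, 1.68-fold and 1.22-fold higher. None of the 9 genes above the floor passed 2-fold with age in either genotype. Of 6 survival and help factors above the floor, none passed 2-fold with age. Il6ra, the interleukin 6 receptor, was 1.21-fold and 1.4-fold higher, and Icosl, a costimulatory ligand, 1.4-fold and at least 1.42-fold higher. Cd40, a receptor for T cell help, was at least 1.24-fold and at least 1.87-fold lower.

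**Figure D4:**
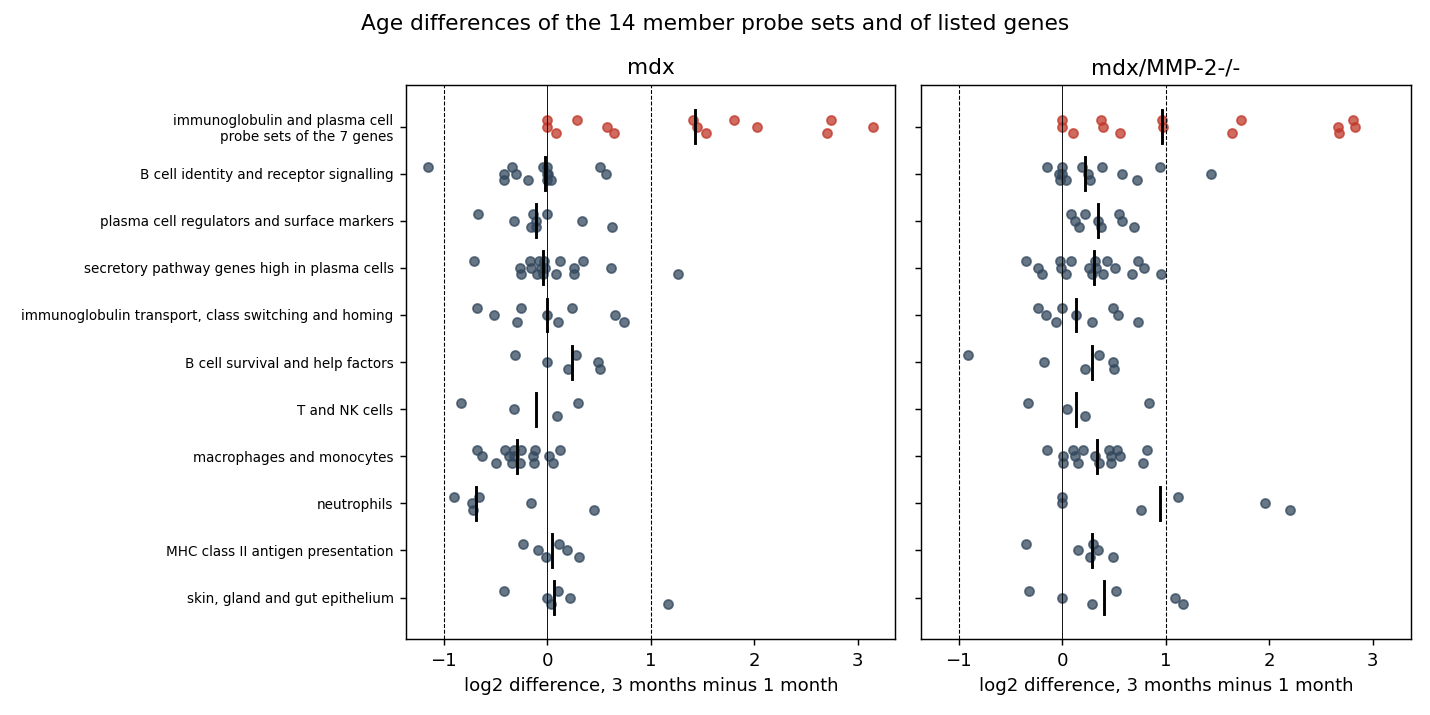
Log2 difference between 3 months and 1 month in mdx (left) and mdx/MMP-2-/- (right); each point is 1 member probe set (top row) or 1 listed gene above the floor, vertical bars are medians and dashed lines mark 2-fold. The top row, whose genes were chosen for this rise, has medians of 1.43 in mdx and 0.97 in mdx/MMP-2-/-. Those of the B cell, plasma cell regulator and secretory lists lie between -0.11 and 0.34. The highest points of the top row are 3.15 in mdx and 2.83 in mdx/MMP-2-/-. In these lists they are 1.26 (Derl3) and 1.43 (Cd180).

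Markers of other cells that could share the sample are given beside these results, and their part in the age differences was not tested. Of 16 T and NK cell genes 12 were under the floor, Cd3e, Cd3d and Cd4 among them, and the summed signal of the list was 473 and 419 at 1 month in mdx and mdx/MMP-2-/-, and 355 and 408 at 3 months. Thy1, which fibroblasts also express, made up most of that sum. Without it the sum was 154 and 135 at 1 month, and 175 and 182 at 3 months. This sum includes the 12 genes under the floor, whose signals have no order, so no rise is read from it. Cd8a, a marker of cytotoxic T cells, was 1.23-fold and at least 1.78-fold higher at 3 months. All 6 lymph node stroma genes with a probe set of their own, such as Glycam1, were under the floor, with summed signals of 29.7 to 38.7. All 16 macrophage genes were above it, with sums of 14193 and 13066 at 1 month, and 10653 and 15122 at 3 months. Macrophage medians with age were -0.29 in mdx and 0.33 in mdx/MMP-2-/-. Neutrophil genes had medians of -0.69 in mdx and 0.94 in mdx/MMP-2-/-. Their sums, which include 3 genes under the floor, were 195 and 217 at 1 month and 126 and 714 at 3 months. In both lists mdx lay lower at 3 months, unlike Igkc and Igha. Class II antigen presentation genes, shared by B cells and macrophages, had medians of 0.05 and 0.28 and no member at 2-fold. Between 0.96% and 1.55% of all genes passed 2-fold in a given direction and genotype.

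Of epithelial markers, 6 of 10 were above the floor. Summed over all 10, signals were 293 and 262 at 1 month and 344 and 321 at 3 months. Krt18, a keratin of simple epithelium, gave 31.8 and 34.96 at 1 month in mdx and mdx/MMP-2-/-, and 71.5 and 74.6 at 3 months, 2.25-fold and 2.13-fold higher. Epcam gave 3.71 and 21.3 at 1 month and 20.4 and 47.8 at 3 months. Krt10, a keratin of skin, was lower at 3 months, at 140 and 112 at 1 month and 104 and 89.8 at 3 months. Krt8 was 1.02-fold and 1.22-fold higher. Over the 6 the median age difference in mdx was 0.07, that in mdx/MMP-2-/- 0.40. Krt14, Krt1, Cdh1 and Krt19 were under the floor. Of the red blood cell list, a probe set shared by Hba-a1 and a second gene, named after its values were seen, gave 8512 in both genotypes at 1 month, and 5842 and 6183 at 3 months. The 2 blood markers with a probe set of their own above the floor, Alas2 and Hbb-b2, were at most 1.18-fold higher at 3 months.

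The genes whose course over the 4 arrays was closest to the mean course of the 14 were Pde7a, Nek7, Cpeb2, Rgcc, Birc3, Cul3, Bcl2l11 and Rad21, in this order. Likeness was the Euclidean distance between centred log2 signals over 4 arrays, among 11450 bright probe sets with 1 symbol, and was between 0.209 and 0.285 for the 8. Pde7a, a phosphodiesterase, gave 40.6 and 39.9 at 1 month in mdx and mdx/MMP-2-/-, and 102 and 108 at 3 months. The distance of the members themselves from their mean was between 0.284 (Igha 1429381_x_at) and 1.71 (Igkc 1452417_x_at). This distance grows with the size of a change as well as with its course, and the 8 are the nearest of 11450. It therefore cannot say whether the members stand apart from other genes.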

How the data were processed

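The submitters' processing notes name MAS5 and Affymetrix Expression Console. The deposited tables give a linear intensity per probe set and array, with no scaling target given in the sources used here. Per the labels, RNA was isolated on columns and labelled with biotin. The number of arrays limits the precision.

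Of 45101 probe sets, controls were left out, which left 45037; the platform annotation gives 1 gene symbol for 34945 of these, several for 932 and none for 9160. Quantile normalization (limma 3.58.1, R 4.3.3) put the arrays on 1 scale, a floor of 17.4 was set, and log2 was taken. The 26032 probe sets above this floor in some array entered counts and the limma fit (lmFit, eBayes, Benjamini-Hochberg adjustment over all of them), which was tested on simulated data. A listed gene was represented by its 1-symbol probe set with the highest mean. Tables and plots used numpy 2.4.6, pandas 2.3.3 and matplotlib 3.10.9 (Python 3.11.15).

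Named were all probe sets of the members, other antibody probe sets above the floor, up to 4 genes per list with the largest differences, and the 8 nearest courses (highest signal at or above 85.4, the 75th percentile). Genes under the floor named for their role, haemoglobin, and genes added to show both directions in a list (Cxcl12, Fcgrt, Txndc5, Krt8) were picked with their values known. The members, lists and rules were chosen with earlier results of these data known. Alternatives were other scalings (median, cyclic loess, none), floors at the 60th and 40th percentile, a pseudocount of 5.09 without a floor, single-symbol probe sets ending in _at only, a 3-fold threshold, and another variance prior.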

Additional observations from a re-analysis of the deposited data

Results flagged for a closer look

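Of 48 genes above the floor that were named by the rule from the lists, 20 had age differences of opposite sign in the 2 genotypes. Among all 26032 probe sets above the floor 32.3% did, and of the 14 probe sets of the antibody and plasma cell genes 0 did. These genes were chosen by their rise with age in the same arrays, which favours equal signs. Ighm 1425247_a_at, Ighm 1425385_a_at, Mzb1 and Cd79b were also under the floor at both ages in 1 genotype. Their age difference there was set to 0.0 and could not take an opposite sign. Nothing is therefore read from the 0 of 14 beside the 32.3%. With 1 array per group none of these differences between genotypes was tested. The values below are log2 age differences in mdx and then in mdx/MMP-2-/-. Among B cell and plasma cell genes they were -1.15 and 0.38 for Syk, a kinase of the B cell receptor, -0.67 and 0.55 for Tnfrsf13b, a receptor of B cell survival factors, and -0.32 and 0.22 for Cd28. Among secretory, homing and help genes they were -0.031 and 0.74 for Edem1, 0.65 and -0.16 for Ccl28, a chemokine that draws IgA plasma cells, -0.51 and 0.49 for Ccl25, -0.68 and 0.74 for Tgfb1, a cytokine of IgA class switching, and 0.51 and -0.18 for Cd86. Among neutrophil genes they were -0.73 and 2.20 for S100a8, -0.90 and 1.95 for S100a9, -0.72 and 0.76 for Ngp, and -0.66 and 1.12 for Csf3r. Among macrophage and antigen presentation genes they were -0.34 and 0.56 for Mrc1, -0.12 and 0.82 for Ccr2, -0.26 and 0.78 for Fcgr1, and -0.23 and 0.15 for H2-DMa. The remaining 4 were Lor (-0.0058 and 0.52), Acta1 (0.072 and -0.038), Mmp2 (-0.29 and 0.73) and Dmd (0.32 and -0.13). Past 2-fold lay Syk in mdx, and S100a8, S100a9 and Csf3r in mdx/MMP-2-/-. Tnfrsf13b, Cd28, Ccl28, Csf3r and Lor had a signal under the floor in at least 1 array.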

How the results depend on the processing

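Over the alternatives for single member probe sets, 359 of 376 values stayed on their side of 2-fold and 0 turned past it in the opposite direction. Many of these values were 0 or a bound because of the floor, which favours staying on a side. This share therefore says little about how firm the calls are. The 6 Igkc and Igha probe sets passed 2-fold with age in both genotypes under each scaling; with the floor at the 60th percentile Igha 1425763_x_at gave a bound of 0.94 (log2) in mdx/MMP-2-/-. Counts at 2-fold differed by over 1.5 times as follows. With single-symbol probe sets ending in _at only, 3 remained, of which 1 (Jchain) was past 2-fold with age in mdx (median 0.0) and 0 in mdx/MMP-2-/-, and 0 by genotype at 3 months. At 3-fold, 5 were higher with age in mdx and 0 differed by genotype at 3 months. Without a floor, all 25 counted: in mdx the median age difference was 0.495, in mdx/MMP-2-/- it was 0.37, and 2 probe sets differed by genotype at 1 month and 3 at 3 months. With floors at the 60th and 40th percentile, 0 and 2 differed by genotype at 3 months. At unadjusted p, 2 were called for genotype, as were 1229 of all 26032 probe sets. Shares of all probe sets past the fold thresholds under these alternatives are not given here, so nothing is read from those counts. Signals near the floor and 1 array per group limit all of these.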
